A study of Mus musculus with 10 samples.

Results

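Among 122984 peaks of open chromatin in mouse adipocytes, 737 were chosen here because they were low after 4 hours of forskolin and near the control level after 3 days. The peaks were chosen by the measured levels of the control, 4-hour and 3-day forskolin libraries. Counts of each library were divided by its total to give CPM, the usual unit of library-scaled counts, the 2 libraries of each group were averaged, and 0.25 CPM was added to each mean before ratios were taken. A peak was kept if its control mean was at least 2 CPM, its 4-hour mean was at most 0.5 of control, both 4-hour libraries lay below both control libraries, and its 3-day forskolin mean was above 0.8 of control. Of the 122984 peaks, 65825 reached the control level, and 3655 of these also met the 4-hour conditions. The 737 transiently closed peaks are those with a 3-day ratio above 0.8. The other 4-hour-closed peaks had a 3-day ratio from 0.5 to 0.8 (1905 peaks) or of 0.5 or less (1013 peaks, called persistently closed below). The low 4-hour level and the return at 3 days are therefore how the peaks were found and are given as description, with no test.

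The libraries came from MAP cells, 1 immortalized line of mouse adipocyte progenitors, that had been turned into adipocytes. Every group, control included, was differentiated with insulin, isobutylmethylxanthine (500 uM), dexamethasone (1 uM) and rosiglitazone (1 uM) for 2 days, then with insulin and rosiglitazone for another 2 days. Control libraries (S1, S2) came from adipocytes given vehicle. At day 7 to 8 the others received forskolin for 4 hours (FSK4h, S3 and S4), for 1 day (FSK1D, S5 and S6) or for 3 days (FSK3D, S7 and S8), or rosiglitazone for 3 days (Rosi3D, S9 and S10). The sources used here give no dose for forskolin, or for rosiglitazone in the last group. They also give no time for the control, the only reference for all treatment lengths. Differences from control therefore cannot be told apart from those of time in culture. Controls had thus met rosiglitazone, and the phosphodiesterase inhibitor isobutylmethylxanthine, earlier in culture. Nothing says that both libraries within a group stem from independent cultures, so p-values measure the spread between these libraries, which may be technical.

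ATAC-seq uses a transposase that cuts and tags DNA not covered by nucleosomes, so a peak marks a stretch that was open for the enzyme. Such stretches are mostly gene start sites and enhancers, distal elements that transcription factors bind. Forskolin activates adenylyl cyclase and raises cAMP, the messenger through which adrenergic signals reach adipocytes, where it drives lipolysis and thermogenic genes. Rosiglitazone is an agonist of PPARγ, the nuclear receptor that directs fat cell differentiation. A count in bulk nuclei cannot tell fewer nuclei with the site open from less opening in each nucleus.

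Each library had between 10410233 and 18935287 counts in peaks. Start-site peaks were present for 7 of 8 adipocyte marker genes (all but Lep) and for none of 3 muscle markers. For genes with several start-site peaks only the one highest in control was used, a choice that leans toward high control values. Summed over the markers, the adipocyte peaks taken in this way held 263 to 284 CPM in the control libraries and 227 to 253 at FSK4h. They held 219 to 227 at FSK1D, 235 to 240 at FSK3D and 299 to 304 at Rosi3D. Macrophage markers had a start-site peak for 3 of 5 genes (none for Adgre1 or Ptprc), with sums of 16.6 to 19.7 CPM in control, 29.1 to 29.4 at FSK4h, 25.5 to 26.0 at FSK1D, 24.1 to 26.0 at FSK3D and 18.6 to 19.9 at Rosi3D. These sums were thus lower (adipocyte) and higher (macrophage) in every forskolin library than in both control libraries, but single adipocyte genes went the other way at FSK4h, where the group means were 11.1 CPM against 9.36 in control for Plin1 and 23.7 against 19.3 for Cidec. Adipose progenitor markers had a start-site peak for 4 of 7 genes, with sums of 45.1 to 45.8 CPM in control, 37.5 to 40.4 at FSK4h, 42.8 to 45.3 at FSK1D, 36.5 to 38.2 at FSK3D and 41.5 to 45.5 at Rosi3D. Of the transiently closed peaks, none was assigned to a gene of the macrophage or endothelial lists, and the part of these marker shifts in the results was not tested.

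Few of the peaks lay at gene starts. RefSeq start-site windows (GRCm38.p6, the mm10 build) were compared with the peaks, and 19 of the 737 overlapped 21 of 32851 windows, 8 of them at protein-coding genes. The stretches of 4 of those peaks that lie before the start are shown because the values at these genes are described below. Each is written 5′ to 3′ on the gene's strand, and capitals mark a match to a searched motif. The stretches are chr10:79890603-79890852 on the plus strand for Cfd, chr11:54902746-54902853 on the plus strand for Gpx3, chr2:118544588-118544766 on the minus strand for Bmf and chr10:20548329-20548470 on the minus strand for Pde7b.
Cfd: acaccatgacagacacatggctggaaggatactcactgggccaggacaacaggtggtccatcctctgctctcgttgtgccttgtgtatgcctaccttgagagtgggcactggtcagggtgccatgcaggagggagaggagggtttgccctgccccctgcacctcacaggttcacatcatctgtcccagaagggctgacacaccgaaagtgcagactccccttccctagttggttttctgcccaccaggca
Gpx3: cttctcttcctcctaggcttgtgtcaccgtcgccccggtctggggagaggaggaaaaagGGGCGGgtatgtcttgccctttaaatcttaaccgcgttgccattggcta
Bmf: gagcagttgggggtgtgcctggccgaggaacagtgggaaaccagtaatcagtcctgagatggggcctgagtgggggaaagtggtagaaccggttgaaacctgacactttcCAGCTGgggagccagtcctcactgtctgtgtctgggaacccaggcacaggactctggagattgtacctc
Pde7b: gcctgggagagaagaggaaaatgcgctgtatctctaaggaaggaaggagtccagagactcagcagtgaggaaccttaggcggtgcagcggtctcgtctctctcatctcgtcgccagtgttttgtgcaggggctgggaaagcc
The Gpx3 stretch held 1 SP1 motif, the Bmf stretch held 1 E-box CAGCTG, and the Cfd and Pde7b stretches held none of the motifs searched. GC content was 57.6% for Cfd, 55.6% for Gpx3, 57.5% for Bmf and 56.3% for Pde7b.

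Motifs were counted in the whole 250 bases before each start, on both strands, as letters only. The cAMP response element TGACGTCA, the site of the factor CREB, was in 0 of the 21 windows and in 1.55% of all windows, and its core TGACG in 1 of 21 (17.8% of all). AP-1 (TGANTCA; 6.75% of all windows), C/EBP (TTGCNNCAA; 1.74%), PPAR DR1 (AGGTCA repeated with 1 base between; 0.0335%), NFI (TTGGC and GCCAA with 5 bases between; 0.0365%), STAT (TTCNNNGAA; 7.02%), NF-kB (GGG and TTTCC with 2 bases between; 1.41%) and NRF1 (GCGCA then TGCGC; 0.782%) had no match in the 21. EBF (TCCC and GGGA with 2 bases between) matched in 3 of 21 against 0.779% of all windows, and the single PPAR site AGGTCA in 5 of 21 against 14.0%. KLF (CCACCC) matched in 7 of 21 against 28.1%, SP1 (GGGCGG) in 4 against 32.7%, TEAD (GGAATG) in 3 against 12.6%, the single NFI arm TTGGCA in 3 against 12.3%, and the E-box CAGCTG in 3 against 13.0%. A single window each matched the glucocorticoid response element (GNACA and TGTNC with 3 bases between; 0.387% of all), ISRE (GAAA repeated with 2 bases between; 2.98%), the E-box CACGTG (6.02%), ETS CCGGAAG (6.91%) and the CTCF core (CC and AGGGGGC with 3 bases between; 1.17%). The single PPAR and NFI sites and the core TGACG also count inside the full sites, and SP1 can overlap the end of the CTCF core. Median GC content of the 21 windows was 55.2%, against 60.8% for 13579 windows at peaks with a control mean of at least 2 CPM and 52.4% for all windows. In those 13579 windows the shares were 60.0% for SP1, 32.8% for KLF, 27.4% for TGACG and 13.6% for ETS. They were 10.2% for the single PPAR site, 2.69% for the cAMP response element and 0.884% for EBF. Of the 21 windows, 8 were at protein-coding genes, and 0 of these 8 held the single PPAR site. With 21 windows these shares are coarse, and a match is a description of letters, not of binding.

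Across the 737 peaks, the median level was 3.94 and 3.98 CPM in control libraries S1 and S2. It was 1.46 and 1.63 CPM at FSK4h, 3.235 and 3.17 at FSK1D, 3.99 and 3.53 at FSK3D, and 4.01 and 3.93 at Rosi3D. Both FSK4h medians were the lowest of the 10, and both FSK1D medians lay between them and all the others. Control means of single peaks ran from 2.00 to 49.7 CPM. As a ratio to control, the median FSK4h level was 0.439 (quartiles 0.392 and 0.471, lowest 0.174), and the FSK3D median was 0.910 with a highest value of 2.17. By library the FSK3D medians were 0.963 in S7 and 0.890 in S8, and 637 peaks passed 0.8 in S7 against 539 in S8.

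**Figure D1:**
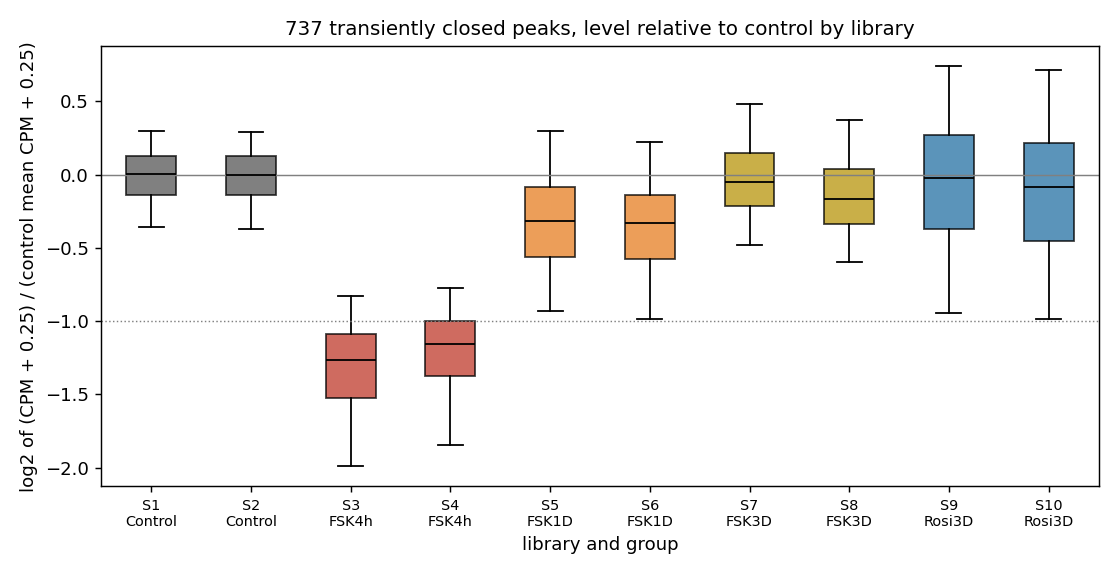
Level of the 737 transiently closed peaks in each library, on the y axis as log2 of CPM plus 0.25 over the control mean plus 0.25, by library and group on the x axis. Boxes give the quartiles with the median as a line, whiskers the 5th and 95th percentiles, and the dotted line is 0.5 of control. Medians are lowest in S3 and S4 (ratios of 0.417 and 0.449), 0.804 and 0.795 in S5 and S6, and 0.963 and 0.890 in S7 and S8.

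The thresholds cut through a continuous range. The peaks assigned to Gli2 and Mylk were the last inside the 4-hour limit (both 0.4999 of control), and those at Otud1 (0.5002) and Osbp2 (0.5003) were just outside. At the 3-day limit Cmip (0.8007) and Apbb2 (0.8009) were just inside, and St3gal3 (0.7996) and Umad1 (0.7995) just outside. At the control limit Vac14 (2.003 CPM) and Alg14 (2.004 CPM) were inside, and Fam124b and Clec14a, both at 1.995 CPM, were outside.

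Because the same libraries chose the peaks and measured them, the rule was applied again with 1 of its 6 libraries left out, and the library left out was then read. Without S4, 1226 peaks were found, with a median ratio of 0.433 in S3, which chose them, and 0.567 in S4, where 34.4% were at or under 0.5. Without S3, 952 were found, at 0.444 in S4 and 0.523 in S3, where 44.3% were at or under 0.5. The FSK3D medians were 0.893 in S7 when S7 was left out and 0.782 in S8 when S8 was left out, with 66.7% and 46.6% above 0.8. So the left-out 4-hour libraries were also low, but less so than the libraries that made the choice, and S8, when left out, was at or under 0.8 for most peaks.

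**Figure D2:**
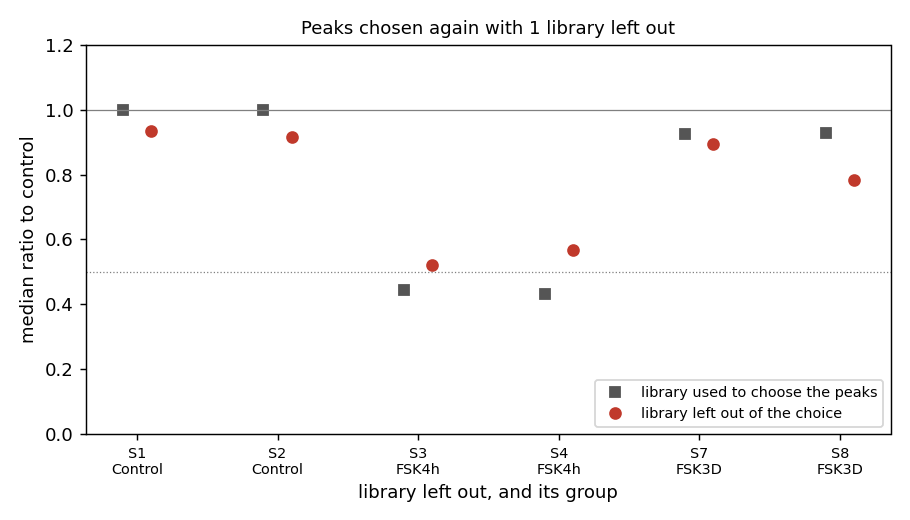
Median ratio to control (y axis) of the peaks found when the library on the x axis was left out of the choice. Squares are the other library of that group, which chose the peaks, and circles the library left out. The circles for S3 and S4 are at 0.523 and 0.567, above their squares at 0.444 and 0.433 and under 1. Both control libraries, over which these ratios were taken, also chose the peaks.

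The 1-day libraries were not read by the rule. At FSK1D the median ratio to control was 0.7997 (quartiles 0.695 and 0.9065, range 0.354 to 2.14). It was 0.446 for the persistently closed peaks, 0.611 for those with a 3-day ratio from 0.5 to 0.8, and 1.02 for all peaks with a control mean of at least 2 CPM. At FSK1D 11 of the 737 were still at or under 0.5 of control, 358 were between 0.5 and 0.8, 351 between 0.8 and 1.25, and 17 above 1.25. Both FSK1D libraries were above both FSK4h libraries at 675 peaks (91.6%), against 27.9% of all peaks, and both control libraries were above both FSK1D libraries at 404 (54.8%), against 19.8%. Both FSK1D libraries were above both control libraries at 27 (39.9% of all peaks). Both FSK3D libraries were above both FSK1D libraries at 333 (45.2%), against 14.6%, and below them at 22 (25.6% of all peaks). Of the peaks with a control mean of at least 2 CPM, the shares were 32.0%, 28.1%, 34.5%, 15.6% and 26.9% in that order. The counts among the 737 lean toward the direction of the choice, since each sets FSK1D against a group that the rule had read. So do the calls of the fit over all 10 libraries, which found 175 of the 737 lower at FSK1D than in control (23.7%) and 2 higher (0.271%). The shares were 9.84% and 12.9% of all tested peaks, and 16.8% and 11.4% of the peaks with a control mean of at least 2 CPM, the floor that the rule set.

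The deepest 4-hour levels, among the peaks with control means at or above the median, were at Eml6, Ranbp10, Maml1, Ccdc61, Tbc1d10a, Tnip1, Bcl7a and Rab1a. In the body of Ranbp10, a Ran-binding protein gene (chr8:105773447-105773872), the control libraries held 10.09 and 11.03 CPM, FSK4h 1.39 and 2.72, FSK1D 6.23 and 5.81, FSK3D 11.1 and 12.05, and Rosi3D 6.61 and 5.645. FSK4h was lowest, FSK3D was back above control, and the FSK1D and Rosi3D libraries overlapped in between. At Tnip1, whose product binds the NF-kB inhibitor A20 (chr11:54913826-54914293, 10972 bp from the start of Gpx3), control held 8.93 and 7.35 CPM, FSK4h 1.99 and 1.94, FSK1D 4.705 and 5.18, FSK3D 6.815 and 7.29, and Rosi3D 3.59 and 3.31. Rosi3D was here the next lowest group after FSK4h, below both FSK1D libraries. Eml6 (chr11:29778015-29778490, gene body), of the microtubule-associated EMAP family, had the lowest 4-hour ratio, 0.203, with 4.80 and 3.75 CPM in control, 0.797 and 0.545 at FSK4h, 3.235 and 2.11 at FSK1D, 4.97 and 4.07 at FSK3D, and 5.345 and 3.99 at Rosi3D. Its FSK4h libraries were far below all others, and its FSK1D libraries were below both Rosi3D libraries.

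Tbc1d10a, a GTPase-activating protein for Rab proteins (chr11:4197735-4198132, gene body), held 4.80 and 5.67 CPM in control, 1.33 and 0.969 at FSK4h, 3.06 and 1.90 at FSK1D, 4.97 and 4.68 at FSK3D, and 4.43 and 4.85 at Rosi3D. Among peaks with control means at or above the median, it was also 1 of the 5 lowest at FSK1D, with a ratio of 0.498. Bcl7a, a gene of a SWI/SNF remodelling subunit, had 4-hour, 1-day and 3-day ratios of 0.2805, 0.676 and 1.07. For Rab1a, which acts in transport from the endoplasmic reticulum to the Golgi, they were 0.286, 0.577 and 0.851, and for Ccdc61 0.252, 0.608 and 0.861.

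**Figure D3:**
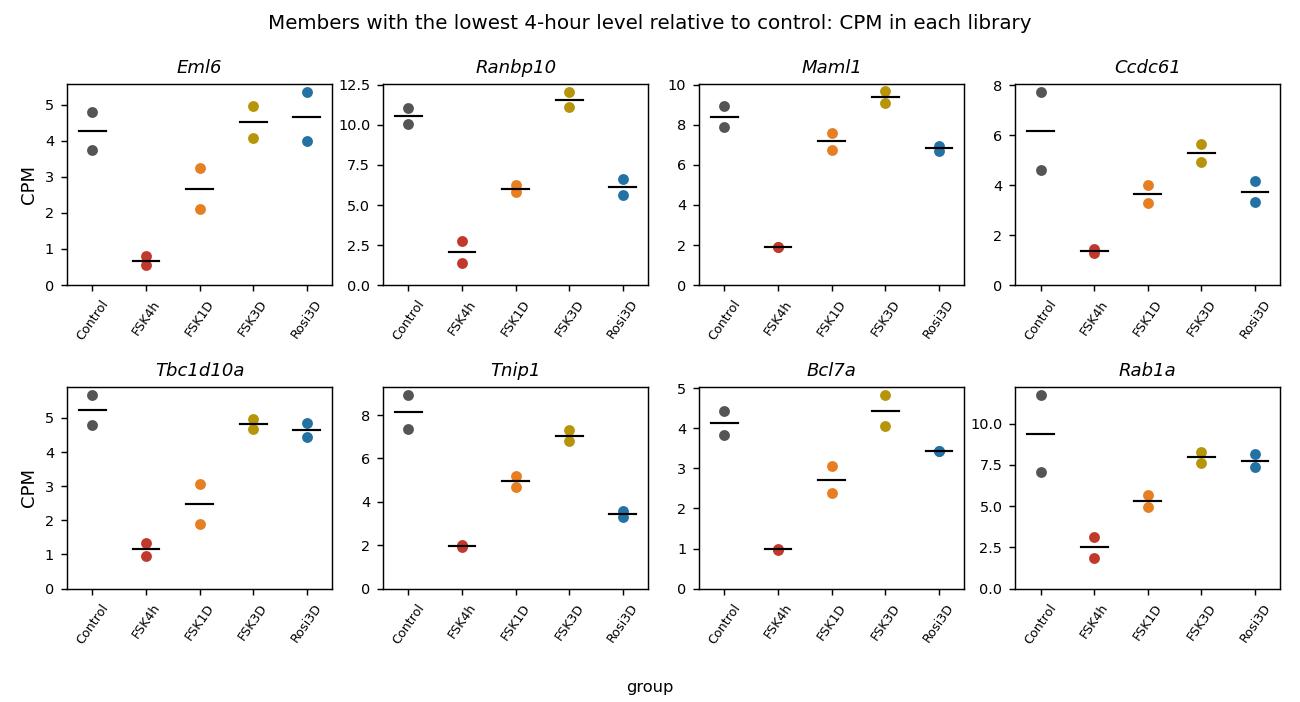
CPM (y axis, from 0) in each library, by group on the x axis, for the 8 peaks with the lowest 4-hour ratios among those with control means at or above the median. Points are libraries and lines group means. The FSK4h points lie below all other groups in the 8 panels, and both Rosi3D points lie below both control points at Tnip1, Ranbp10, Maml1, Ccdc61 and Bcl7a.

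At 1 day a few peaks were already above control. The start-site peak of Mmp2, a gelatinase of the extracellular matrix (chr8:92825858-92826454), held 4.90 and 4.21 CPM in control, 1.86 and 1.755 at FSK4h, 9.70 and 7.605 at FSK1D, 9.21 and 7.98 at FSK3D, and 9.845 and 7.61 at Rosi3D. All 6 of its later libraries were above both controls, with ratios of 1.85, 1.84 and 1.87. Setd7, a lysine methyltransferase gene (chr3:51593453-51593986, outside the gene), held 10.3 and 8.20 CPM in control, 5.51 and 2.91 at FSK4h, 15.2 and 9.56 at FSK1D, 15.7 and 9.90 at FSK3D, and 7.03 and 5.22 at Rosi3D. Its FSK1D libraries were both above both Rosi3D libraries but far apart from each other. With Ctnnd2, Bod1 and Hlf (FSK1D ratios of 1.41, 1.30 and 1.24), Mmp2 and Setd7 were the 5 highest among peaks with control means at or above the median. Under the same limit on control means, the lowest at 1 day were Trmt9b (0.453), Tcf7l1 (0.468), Tbc1d10a (0.498), Tk1 (0.5025) and Hemk1 (0.5135). Peaks with smaller control means went further at FSK1D, such as Eml1 (2.14) and Rap1gap2 (0.354). Tcf7l1 encodes a TCF factor that represses Wnt targets and Tk1 thymidine kinase, and their FSK3D ratios were 0.8244 and 0.8239.

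The comparison of FSK1D with Rosi3D rests on libraries that the rule did not read, so it can be tested. It sets treatments that differ in both agent and length, 1 day against 3 days. In edgeR's quasi-likelihood test, with Benjamini-Hochberg adjustment over all 118954 tested peaks, 216 of the 737 passed an adjusted p of 0.05 (29.3%; 27.2% of all tested peaks). The peaks lower at FSK1D numbered 186 (25.2%, against 10.8% of all tested), and 30 were higher (4.07%, against 16.4%). Of the peaks with a control mean of at least 2 CPM, 30.4% passed, 14.4% lower and 16.0% higher at FSK1D. The median log2 difference, FSK1D minus Rosi3D, was -0.333 over the 737 and -0.0153 over all tested peaks. It was -0.0948 over those with a control mean of at least 2 CPM. Of the persistently closed peaks, 603 of 1013 were lower and 1 was higher, with a median of -1.04. Both Rosi3D libraries were above both FSK1D libraries at 368 of the 737 (49.9%, against 28.6% of all peaks) and below them at 115 (15.6%, against 34.8%). Of the peaks with a control mean of at least 2 CPM, these orders were seen at 34.6% and 31.5%. The share that passed was therefore near the background, and more of the calls were lower at FSK1D than over all peaks.

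Fewer of the 737 passed without S5, S6, S9 or S10, and with DESeq2. Leaving out any of these libraries left its group without a replicate. The lower counts without them therefore cannot tell dependence on that library from the loss of replication. The same holds for the calls of single peaks described below as ended without S5, S6, S9 or S10. Without S5 the count of the 737 that passed was 122, without S6 131, without S9 145 and without S10 127, and with DESeq2 it was 138. The share of all tested peaks that passed fell as well, to 16.3%, 18.1%, 17.9%, 16.7% and 18.0% in that order. The peaks lower at FSK1D outnumbered those higher in each case, with higher peaks making up from 10.7% (without S5) to 18.6% (without S9) of the calls.

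The calls in both directions are described by their levels beside control. The same FSK1D and Rosi3D libraries made the calls, so a gap between these 2 groups is built in. For the 186 lower at FSK1D, the median ratio to control was 0.738 at FSK1D and 1.29 at Rosi3D, and Rosi3D was above control at 164 of them. For the 30 higher at FSK1D, the median was 0.992 at FSK1D and 0.522 at Rosi3D, and Rosi3D was below control at all 30. Over the 737 the Rosi3D median was 0.965 (quartiles 0.770 and 1.17), with 30 peaks at or under 0.5, 185 from 0.5 to 0.8, 380 from 0.8 to 1.25 and 142 above 1.25. Rosi3D shares its control with the choice of peaks, and the fit called 55 lower (7.46%) and 16 higher (2.17%) than control. The shares were 3.35% and 3.22% of all tested peaks, and 5.41% and 3.11% of those with a control mean of at least 2 CPM.

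**Figure D4:**
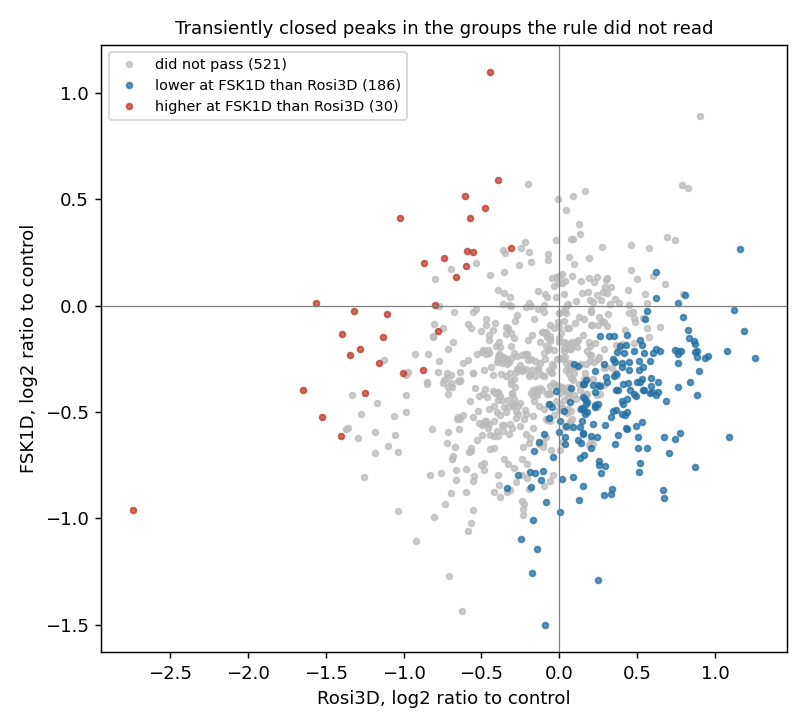
Each point is 1 of the 737 peaks, with its Rosi3D level on the x axis and its FSK1D level on the y axis, both as log2 of the ratio to control. Blue points (186) were lower at FSK1D than at Rosi3D in edgeR's test, red points (30) were higher, and grey points did not pass. Red points lie left of the vertical zero line, and most blue points lie right of it and under the horizontal one.

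Among the peaks lower at FSK1D, Klkb1, the gene of plasma kallikrein (chr8:45268008-45268335, gene body), held 2.40 and 2.83 CPM in control, 1.06 and 1.09 at FSK4h, 1.71 and 1.53 at FSK1D, 3.13 and 2.61 at FSK3D, and 6.26 and 5.46 at Rosi3D. Rosi3D was above every other library, and the log2 difference was -1.90 (SE 0.3095 from the fit, edgeR adjusted p = 1.04e-06). Fdft1, squalene synthase of the cholesterol pathway (chr14:63159723-63159983, gene body), held 2.69 and 2.83 CPM in control, 1.06 and 1.39 at FSK4h, 1.18 and 0.792 at FSK1D, 2.46 and 2.38 at FSK3D, and 3.235 and 3.44 at Rosi3D. It was as low at FSK1D as at FSK4h, with a FSK1D minus Rosi3D log2 difference of -1.815 (edgeR adjusted p = 0.000115). Matn2, a matrilin of the matrix (-1.84, edgeR adjusted p = 0.0001635), and Wdr18 (-1.71, edgeR adjusted p = 7.875e-05) were alike in order, with both Rosi3D libraries above both of FSK1D. Rap1gap2 gave -1.77 (edgeR adjusted p = 0.00335), and its call ended without S5 (edgeR adjusted p = 0.088) and without S10 (edgeR adjusted p = 0.0927).

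Among the peaks higher at FSK1D, Eml1 (chr12:108489870-108490245, gene body) held 2.88 and 1.915 CPM in control, 0.863 and 1.03 at FSK4h, 6.175 and 4.65 at FSK1D, 3.13 and 3.15 at FSK3D, and 1.62 and 1.78 at Rosi3D. FSK1D stood above all other groups, with a log2 difference to Rosi3D of 1.61 (SE 0.318, edgeR adjusted p = 4.93e-05). Zbtb20, a zinc finger repressor gene (chr16:43190396-43190867, gene body), held 1.825 and 4.21 CPM in control, 1.66 and 1.09 at FSK4h, 3.705 and 2.38 at FSK1D, 2.58 and 2.84 at FSK3D, and 0.914 and 0.798 at Rosi3D. Its control libraries differed more than those of FSK1D, and Rosi3D was the lowest group (FSK1D minus Rosi3D 1.76 on the log2 scale, edgeR adjusted p = 0.000536). The peak outside Il2 had 33 counts over both FSK1D libraries and 3 over both Rosi3D libraries, a ratio of 9.34 after scaling to the totals (95% exact interval 2.93 to 47.6, counting error only). Its call ended without S9 (edgeR adjusted p = 0.0678). Unc93a2 (1.59) and Arhgap26 (1.435) were the other 2 named by size. Their calls ended without S5 (edgeR adjusted p = 0.0536 and 0.105) and without S10 (edgeR adjusted p = 0.0702 and 0.0907).

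The tallest of the peaks lay beside Cfd, which encodes adipsin, the complement factor D that fat cells secrete. It lies in the body of Med16, a Mediator subunit gene (chr10:79896404-79898011), 5551 bp from the Cfd start. It held 45.0 and 54.5 CPM in control, 23.5 and 23.7 at FSK4h, 45.5 and 45.15 at FSK1D, 69.1 and 60.9 at FSK3D, and 16.95 and 20.6 at Rosi3D. FSK3D was above control and Rosi3D below even FSK4h, with an FSK1D minus Rosi3D log2 difference of 1.21 (SE 0.129, edgeR adjusted p = 3.43e-12). The start-site peak of Cfd itself (chr10:79890564-79891045), which holds the sequence printed above, had 19.6 and 19.15 CPM in control, 8.70 and 10.35 at FSK4h, 12.6 and 16.4 at FSK1D, 17.1 and 18.0 at FSK3D, and 8.58 and 7.425 at Rosi3D. It too was lowest at Rosi3D and FSK4h, and was higher at FSK1D than at Rosi3D by 0.81 on the log2 scale (SE 0.162, edgeR adjusted p = 5.47e-05).

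Of 12 peaks between 79874194 and 79909472 on chromosome 10, these 2 were the ones at or under 0.5 of control at FSK4h. The start-site peak of Med16 (chr10:79908114-79909026) held a mean of 63.4 ± 2.31 CPM in control, 53.0 ± 0.124 at FSK4h and 65.0 ± 0.8765 at Rosi3D (SD, n = 2), a ratio of 0.837 at FSK4h and 1.03 at Rosi3D. A small peak next to the tallest one (chr10:79898734-79898964) had a 4-hour ratio of 0.540 and a Rosi3D ratio of 0.339.

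Gpx3, a secreted glutathione peroxidase of adipose tissue, had a low start-site peak in the set (chr11:54902746-54903053, sequence above). It held 2.79 and 3.52 CPM in control, 0.996 and 1.755 at FSK4h, 1.53 and 2.535 at FSK1D, 3.44 and 2.76 at FSK3D, and 1.055 and 1.105 at Rosi3D. Like the Cfd peaks it was low at both FSK4h and Rosi3D, but its FSK1D against Rosi3D difference did not pass (edgeR adjusted p = 0.1015). With the Tnip1 peak it was 1 of 2 transiently closed peaks among 8 between 54894460 and 54921492 on chromosome 11. A further Tnip1 peak there (chr11:54920814-54921070) was also under 0.5 of control at FSK4h (0.2595), but its FSK3D ratio was 0.518.

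Other tall peaks varied in how Rosi3D stood beside FSK1D. Plekha2 (chr8:25070090-25071255, gene body), a phosphoinositide-binding adaptor gene, held 36.3 and 29.6 CPM in control, 15.5 and 15.8 at FSK4h, 31.2 and 32.0 at FSK1D, 28.55 and 24.7 at FSK3D, and 44.8 and 51.9 at Rosi3D. Both Rosi3D libraries were above all others, with a log2 difference of -0.67 (SE 0.122, edgeR adjusted p = 1.19e-05). Ank, which acts in pyrophosphate export (Rosi3D ratio 1.39), and Armc6 (1.19) also had both Rosi3D libraries above all others, with log2 differences of -0.75 and -0.68 (edgeR adjusted p = 1.55e-06 and 2.89e-05). Slc6a6, the taurine transporter gene (chr6:91647186-91647863, outside the gene), held 30.7 and 29.5 CPM in control, 12.5 and 11.7 at FSK4h, 25.4 and 23.3 at FSK1D, 27.4 and 25.3 at FSK3D, and 15.96 and 16.6 at Rosi3D. It was in contrast lower at Rosi3D than at FSK1D (log2 difference 0.53, edgeR adjusted p = 0.00126). At Irf2bp2, a corepressor gene, FSK1D was lower (log2 difference -0.45, edgeR adjusted p = 0.00832), and the call ended without S6 (edgeR adjusted p = 0.0899), S9 (edgeR adjusted p = 0.061) or S10 (edgeR adjusted p = 0.054). At Zfp423, a zinc finger factor of fat cell commitment, FSK1D and Rosi3D were 0.787 and 0.816 of control and did not differ by the test (log2 difference -0.11, SE 0.1345).

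Peaks were assigned to the gene whose body or start held them, or else to the nearest within 50 kb, which is a label and not a measured target. The 630 assigned peaks belonged to 584 genes, 543 of which had 1. Maml1, the gene of a Notch coactivator, had the most, with 5 of its 8 peaks that reached 2 CPM in control, and Anks1 and Bmf had 3 each of 17 and 13. All 5 Maml1 peaks lie within 6 peaks between 50251897 and 50266186 on chromosome 11, and their 4-hour ratios were 0.4845, 0.423, 0.404, 0.248 and 0.456. The strongest dip (chr11:50258322-50258727) held 8.93 and 7.89 CPM in control, 1.925 and 1.88 at FSK4h, 7.59 and 6.76 at FSK1D, 9.09 and 9.67 at FSK3D, and 6.96 and 6.69 at Rosi3D. FSK4h was far below every other library, and FSK1D and Rosi3D overlapped. None of the 5 differed between FSK1D and Rosi3D by the test, whereas the sixth peak, at 0.624 of control at FSK4h, was lower at FSK1D (log2 difference -1.38, edgeR adjusted p = 0.00248).

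Anks1, an ankyrin repeat adaptor gene, had its largest peak at chr17:27945730-27946847 in the gene body, with 10.95 and 14.0 CPM in control, 5.64 and 5.99 at FSK4h, 7.65 and 7.13 at FSK1D, 10.7 and 11.6 at FSK3D, and 17.7 and 18.2 at Rosi3D. FSK1D was still near FSK4h, and Rosi3D was above all (log2 difference -1.34, SE 0.166, edgeR adjusted p = 6.86e-10). A further Anks1 peak (chr17:28034830-28035416) was lower at FSK1D too (-1.08, edgeR adjusted p = 1.54e-05). Bmf encodes a pro-apoptotic BH3-only protein. Its start-site peak (chr2:118544285-118544766, sequence above) held 11.05 and 14.5 CPM in control, 4.78 and 4.42 at FSK4h, 9.47 and 9.35 at FSK1D, 11.7 and 9.59 at FSK3D, and 13.9 and 14.5 at Rosi3D. The FSK1D libraries lay between FSK4h and control and below Rosi3D (log2 difference -0.65, SE 0.167, edgeR adjusted p = 0.00181). Its other 2 peaks had 4-hour ratios of 0.4854 and 0.386. Afap1l2, an actin filament adaptor gene, and Alg14, a gene of N-glycan assembly, are the first by name, Riken models aside, of 38 genes that had 2 peaks each, with 4-hour ratios of 0.306 and 0.4415 and of 0.429 and 0.334. The larger Alg14 peak was higher at FSK1D than at Rosi3D (log2 difference 0.84, edgeR adjusted p = 0.00406), and the call ended without S5 (edgeR adjusted p = 0.0588) or S10 (edgeR adjusted p = 0.133).

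Gene lists were read as the number of transiently closed peaks among each list's peaks with a control mean of at least 2 CPM, beside 737 of 65825 (1.12%) for all peaks. For PPAR targets the count was 0 of 162 peaks, for adipose progenitor genes 0 of 61, for macrophage genes 0 of 19, for endothelial genes 0 of 48 and for ribosomal protein genes 0 of 52. The larger counts were 8 of 310 (2.58%) for adipogenic factors, 5 of 140 (3.57%) for clock genes, 3 of 128 (2.34%) for thermogenic genes, 3 of 206 (1.46%) for cAMP response genes and 2 of 64 (3.12%) for interferon genes. Persistently closed peaks were 1013 of the 65825 (1.54%), and 7 of 206 (3.40%) for cAMP response genes, 5 of 149 (3.36%) for NF-kB inflammation, 6 of 213 (2.82%) for actin, SRF and YAP targets, 3 of 64 (4.69%) for interferon genes and 3 of 236 (1.27%) for insulin signalling. Of transiently closed peaks, collagen and matrix genes had 2 of 296, de novo lipogenesis 2 of 140, and 1 each fell to lipolysis and triglyceride synthesis (of 148), insulin signalling (of 236), adipokines (of 81), NF-kB inflammation (of 149), actin, SRF and YAP targets (of 213) and glucocorticoid targets (of 139). These counts are small, and no list was tested.

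The adipogenic factor peaks included 1 each at Cebpa, Ebf1, Klf15, Srebf1, Stat5a and Zfp423. Cebpa encodes C/EBPα, which works with PPARγ in fat cells, and its peak lies outside the gene, 24636 bp from the start (chr7:35143929-35144551). It held 8.36 and 8.96 CPM in control, 2.39 and 2.60 at FSK4h, 5.76 and 5.44 at FSK1D, 7.12 and 7.60 at FSK3D, and 6.96 and 5.645 at Rosi3D. FSK4h was lowest and all later libraries were below both controls, while FSK1D and Rosi3D were close (log2 difference -0.22, edgeR adjusted p = 0.4807). The start-site peak of Cebpa was not in the set, at 79.5 ± 7.40 CPM in control and 69.5 ± 4.91 at FSK4h (SD, n = 2). The next peak on the gene's side (chr7:35141359-35141981) had ratios of 0.346 at FSK4h and 0.636 at FSK3D, which left it outside the rule. Stat5a, a signal transducer of cytokine and growth hormone receptors, had ratios of 0.424, 0.631 and 0.863 at 4 hours, 1 day and 3 days.

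Clock gene peaks included 2 at Hlf and 1 each at Per3 and Rora. Hlf encodes a PAR bZIP factor of clock output, and its larger peak (chr11:90382046-90382853, gene body) held 18.35 and 16.9 CPM in control, 5.51 and 6.60 at FSK4h, 14.2 and 13.0 at FSK1D, 14.43 and 14.35 at FSK3D, and 19.3 and 19.9 at Rosi3D. FSK1D was below Rosi3D (log2 difference -0.58, SE 0.143, edgeR adjusted p = 0.00109). The smaller Hlf peak (chr11:90371527-90372028) was above control at FSK1D, with a ratio of 1.24, and the Hlf start-site peak was at 12.1 ± 2.05 CPM in control and 11.7 ± 2.995 at FSK4h (SD, n = 2), well within the spread. Rora, a nuclear receptor that activates Bmal1, held 7.01 and 5.515 CPM in control, 2.92 and 2.30 at FSK4h, 5.12 and 5.545 at FSK1D, 7.12 and 5.45 at FSK3D, and 10.06 and 8.47 at Rosi3D. Its Rosi3D libraries were above all others (log2 difference -0.84, edgeR adjusted p = 0.00146).

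Of the cAMP response genes, Sik1, Pde7b and Pde4d each had 1 peak. Pde7b and Pde4d encode phosphodiesterases that break down cAMP, and Sik1 a kinase that holds CREB coactivators out of the nucleus. The start-site peak of Pde7b (chr10:20547978-20548470, sequence above) held 2.305 and 4.14 CPM in control, 1.195 and 1.63 at FSK4h, 2.705 and 3.43 at FSK1D, 3.38 and 2.61 at FSK3D, and 3.38 and 3.87 at Rosi3D. Control libraries were far apart, and FSK1D, FSK3D and Rosi3D overlapped with them. Pde4d (chr13:109692923-109693482, gene body) held 2.88 and 1.38 CPM in control, 0.797 and 0.969 at FSK4h, 1.18 and 1.27 at FSK1D, 1.72 and 1.69 at FSK3D, and 4.08 and 3.19 at Rosi3D. It was highest at Rosi3D (log2 difference -1.61, edgeR adjusted p = 0.0007115). At Sik1 the log2 difference was -0.66 (edgeR adjusted p = 0.03585), and its call ended without S5 (edgeR adjusted p = 0.328), S9 (edgeR adjusted p = 0.237) or S10 (edgeR adjusted p = 0.0614), with DESeq2 (DESeq2 adjusted p = 0.104) and with library size alone (edgeR adjusted p = 0.0618).

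The thermogenic peaks were at Acot11, an acyl-CoA thioesterase gene, at Kcnk3, a potassium channel gene, and at Prdm16, a zinc finger factor of brown fat identity. Acot11 (chr4:106847629-106848916, outside the gene) held 19.8 and 21.7 CPM in control, 7.24 and 9.38 at FSK4h, 15.9 and 19.65 at FSK1D, 19.8 and 18.0 at FSK3D, and 14.3 and 15.0 at Rosi3D. FSK3D was nearly at control, and both Rosi3D libraries were lower than any FSK1D library, with a difference that did not pass (edgeR adjusted p = 0.241). Prdm16 and Kcnk3 had 4-hour ratios of 0.497 and 0.435, FSK1D ratios of 1.02 and 1.15, and FSK3D ratios of 0.907 and 1.43. Neither differed between FSK1D and Rosi3D by the test (edgeR adjusted p = 0.737 and 0.908).

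In lipid synthesis, Slc25a1, the mitochondrial citrate carrier (chr16:17936847-17937089, outside the gene), held 3.27 and 3.83 CPM in control, 1.26 and 1.57 at FSK4h, 2.53 and 1.74 at FSK1D, 3.38 and 2.53 at FSK3D, and 5.56 and 5.15 at Rosi3D. Rosi3D was above every other library (log2 difference -1.38, SE 0.296, edgeR adjusted p = 0.000177). Srebf1, which encodes the lipogenic factor SREBP-1, had ratios of 0.339, 0.797, 0.806 and 0.618 at FSK4h, FSK1D, FSK3D and Rosi3D, and its FSK1D against Rosi3D difference did not pass (edgeR adjusted p = 0.3498). Adora1, an inhibitory adenosine receptor that restrains lipolysis, was lower at FSK1D (-0.57, edgeR adjusted p = 0.0426), but the call ended without S5 (edgeR adjusted p = 0.268), S6 (edgeR adjusted p = 0.0722) or S9 (edgeR adjusted p = 0.382), with DESeq2 (DESeq2 adjusted p = 0.111) and with library size alone (edgeR adjusted p = 0.0793). Ptpn1, a phosphatase of the insulin receptor, had ratios of 0.432, 0.920, 1.23 and 0.707.

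Both interferon list peaks were near Irf1, an interferon-induced transcription factor. The one with the higher control mean (chr11:53793040-53793308, outside the gene) held 1.825 and 3.45 CPM in control, 0.730 and 0.908 at FSK4h, 3.59 and 2.85 at FSK1D, 3.38 and 3.22 at FSK3D, and 6.26 and 6.14 at Rosi3D. Rosi3D was the highest group, with a log2 difference of -0.9989 (edgeR adjusted p = 0.00404), and the call ended without S6 (edgeR adjusted p = 0.0817). Ccn1, a matricellular YAP target, gave -1.065 (edgeR adjusted p = 0.00479), and its call ended without S5 (edgeR adjusted p = 0.0607) and S10 (edgeR adjusted p = 0.0772). Ccl2, a chemokine gene, and Col6a3, a collagen VI gene, had FSK1D ratios of 0.878 and 0.846 with no difference from Rosi3D by the test (edgeR adjusted p = 0.604 and 0.757). Klf15, a glucocorticoid-induced factor, was above control at FSK1D, FSK3D and Rosi3D, with ratios of 1.252, 1.57 and 1.61.

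The peaks lay mainly away from gene starts. Of the 737, 36 were within 1 kb of a protein-coding gene's start (4.88%, 95% Wilson interval 3.55 to 6.69), against 20.4% of the 65825 peaks with a control mean of at least 2 CPM and 2.47% of the persistently closed peaks. Gene bodies held 390 (52.9%, against 40.9%), 204 lay outside genes within 50 kb (27.7%, against 26.0%), and 107 were farther away (14.5%, against 12.6%). Start-site peaks in the set were small, with a median control level of 3.88 CPM, against 27.02 for all start-site peaks that reached 2 CPM. The median FSK1D ratio was 0.787 at starts, 0.802 in bodies, 0.796 outside within 50 kb and 0.784 farther away, so it varied little with position. Median width was 415 bp, against 538 bp for peaks with a control mean of at least 2 CPM, and 25 were 1 kb or wider. The rule's floor on level and its ratio limits also act on peak height, so these shares describe the set and were not tested.

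**Figure D5:**
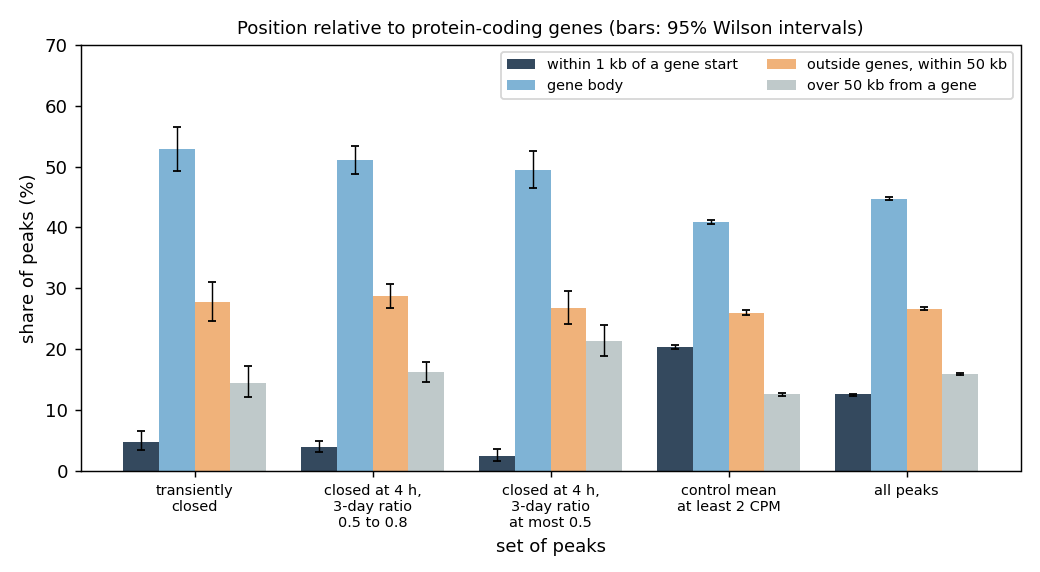
Share of peaks (y axis, %) by position relative to protein-coding genes, for 5 sets of peaks on the x axis, with 95% Wilson intervals as error bars. The dark bars, within 1 kb of a gene start, stand at 4.88% for the transiently closed peaks and 20.4% for peaks with a control mean of at least 2 CPM.

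Most neighbouring peaks were not as low. For 553 of the peaks, another peak with a control mean of at least 2 CPM and outside the set lay within 10 kb, at a median gap of 2741 bp. These neighbours had median ratios of 0.895 at FSK4h and 1.04 at FSK1D, against 0.960 and 1.02 for all peaks of that level. At FSK4h, 46 of the 553 neighbours were at or under 0.5 of control (8.32%, against 5.56% of all peaks of that level) and 216 were above control. Neighbours were taken from outside the set, which leaves out the low ones that met the rule. Of the 737, 32 (4.34%) had another member of the set within 5 kb and 128 (17.4%) within 50 kb. Among the 1013 persistently closed peaks, the shares with another of their own set that near were similar, at 4.05% and 19.2%. Chromosome 11 held 78 of the peaks (10.6%), against 7.19% of the peaks with a control mean of at least 2 CPM. In percentage points this was the largest gap of any chromosome. Others went the other way, such as chromosomes 10 (3.93%, against 6.38%) and 13 (2.31%, against 4.16%), and no chromosome was tested.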

How the data were processed

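The deposited table holds raw read counts, per the file headers and values, for 122984 peaks and 10 libraries. Per the submitters' processing notes the authors' tools were Bowtie2, featureCounts, MACS2, fastp, SAMtools, deepTools and Picard, with the builds GRCm38 and mm10. Their versions, and how peaks, duplicates and the transposase offset were handled, are not given in the sources used here. Per the labels' protocols, 10000 sorted nuclei and 12 PCR cycles went into each library. The group of each column is in its name, with a number (S1 to S10) that names the library here.

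Counts were scaled to CPM by column sums, and the peaks were chosen by the rule given above. The members, gene lists, tests and naming rule were chosen with earlier results of these data known. Peaks were tested with edgeR 4.0.16 (R 4.3.3; TMM, default expression filter, robust quasi-likelihood F test) in 1 fit over all libraries, which tested 118954 peaks, with Benjamini-Hochberg adjustment over them and a call at an adjusted p below 0.05. The biological coefficient of variation was 0.163. Standard errors were derived from the F statistic. The fit was tested on simulated counts with 200 changed peaks. At 4-fold it recovered most of them, at 2-fold a minority, with the right size in both cases. The pass mark was set at 4-fold after the 2-fold test, tried first, had missed it. With so few changed peaks the adjusted cutoff was stricter than in the data, where 27.2% of tested peaks passed. The shares recovered therefore do not carry over to the data, and a peak that did not pass may still differ. Alternatives included DESeq2 1.42.0, other scalings, filters and thresholds, and leaving out each library. Leaving out a library left its group without a replicate, so a call that ended in such a fit cannot be put down to that library.

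Start sites and strands came from RefSeq windows of GRCm38.p6 for 17491 of 21896 protein-coding genes, and either annotated end stood in for the rest. Motifs and GC content were read in these windows only. The peaks named were, at most 1 per gene in each class and without Riken, Gm or olfactory models: the 8 lowest at FSK4h and the 5 highest and 5 lowest at FSK1D (control mean at or above the median), the 8 highest in control, the 5 highest and 5 lowest called FSK1D against Rosi3D with libraries apart, the 5 genes with most members (ties in order of name), up to 3 per gene list and the 2 on each side of each threshold. Gpx3 and the neighbouring peaks of Cfd, Gpx3, Cebpa, Hlf and Maml1 were chosen after their values were seen. A few genes that the naming rule picks are not reported here. Intervals cover counting error only, and PCR copies are not independent molecules.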

Additional observations from a re-analysis of the deposited data

How the results depend on the processing

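The number of peaks that met the rule depended on its settings. It was 737 as reported, 312 with 1 CPM added before ratios, 1169 with a control mean of at least 1 CPM, 269 with at least 5 CPM, 205 with a 4-hour limit of 0.4 and 212 with a 3-day limit of 1.0, and ran from 658 to 1226 when 1 library was left out (highest without S4). TMM-scaled CPM gave 826 peaks, which held 72.0% of the 737, and no added value gave 955 (93.2%). Which peaks met the rule moved more than their number: 716 were found without S1 and 743 without S2, and these held 58.2% and 58.1% of the 737, while the 312 with 1 CPM added held 37.0%. The median FSK1D ratio was 0.758 with TMM-scaled CPM, 0.809 with no added value, 0.764 with the 4-hour limit of 0.4 and 0.893 with the 3-day limit of 1.0, and ran from 0.771 to 0.839 with 1 library left out.

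Calls of FSK1D against Rosi3D among the 737 numbered 216 as reported, 138 with DESeq2, and 122 to 224 with 1 library left out (fewest without S5). They were 189 with library size alone, 216 without a filter, and 245 both with the other groups left out of the fit and with offsets from a loess trend. Of the calls, 13.9% were higher at FSK1D as reported and 18.0% with library size alone. Of 81 named peaks, 37 were called, 21 of these in every alternative. None of the 37 changed sign in any alternative, but 16 peaks that did not pass changed sign in 27 of the 1215 comparisons. The 81 include the peaks named just outside the thresholds, with Fam124b among the 37. They also include peaks named for the size of this same called difference, so their stability is in part built in.

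The start-site share was 2.71% with a 500 bp window and 6.92% with 2 kb. It was 7.46% with either annotated end for all genes, an alternative chosen after seeing the data. The share outside genes ran from 41.0% to 42.7%. No paired analysis was possible because the column names carry running library numbers, not the replicate numbers of the labels. With 2 libraries a group and most peaks of a few CPM, depth limits what single peaks can show.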

Other observations

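Beyond the peak of Cebpa, further transiently closed peaks were assigned to Slc7a10, the gene of an amino acid transporter of adipocytes, which was chosen after its values were seen. The peak at chr7:35157083-35157898 held 5.19 and 4.90 CPM in control, 2.19 and 1.82 at FSK4h, 3.235 and 3.96 at FSK1D, 5.77 and 3.99 at FSK3D, and 3.38 and 4.79 at Rosi3D. FSK4h was the lowest group, and the FSK3D libraries lay on both sides of control. Of the 12 peaks between 35118317 and 35157898 on chromosome 7, 3 were at or under 0.5 of control at FSK4h and 2 of those were transiently closed. Another transiently closed peak lay in the Slc7a10 body (chr7:35189571-35190011).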
